A study of Mus musculus with 8 samples.

Results

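The genes of cholesterol synthesis and its control by SREBP2 were examined in the fasted liver of WT and PLIN5 S155A mice. The group has 27 genes, chosen by name from textbook knowledge of the pathway and found in the deposited table of 45706 genes. The choice was made with earlier results of these data known, so comparisons of the group with all genes are descriptive. They are 19 enzymes of the path from acetyl-CoA to cholesterol, ordered by step, 4 genes of SREBP2 control, and 4 genes of sterol transport, esterification and receptor turnover. All 27 genes passed the filter on low counts that left 14629 genes for testing.

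Cholesterol is built in the liver from acetyl-CoA by way of mevalonate, isoprenoid pyrophosphates, squalene and lanosterol. The transcription factor SREBP2 is held in the endoplasmic reticulum by SCAP and the INSIG proteins when sterols are plentiful. When sterols are scarce, SCAP escorts SREBP2 to the Golgi, where it is cut, and the released part enters the nucleus and raises transcription of most enzymes of the path, of INSIG1 and of its own gene.

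Liver RNA was sequenced from 4 WT and 4 S155A female C57BL/6J mice, 4 months of age, after an overnight fast, and each mouse gave 1 library. The S155A mice were whole-body knock-in animals, called SA/SA in the study, in which CRISPR-Cas9 had been used to replace serine by alanine at the S155 site of the lipid droplet protein PLIN5. The edit is therefore in every tissue, under the gene's own promoter, and the values below come from counts per gene, in which edited and reference codons look alike. The labels give hepatocytes as cell type beside liver as tissue, but the RNA was extracted from liver, so the data are treated as those of whole liver. In such bulk samples fewer cells of a type and less RNA per cell cannot be told apart. By the animal numbers in the labels the mice fall into a low series, numbered under 200 (replicates 1 and 4 in both genotypes), and a high series, numbered over 800 (replicates 2 and 3 in both). What the series stand for (litter, cohort or day of harvest) is not given in the sources used here.

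Total counts per library were between 39709830 and 54540612, and the 27 genes together took between 1447 and 2497 CPM (a gene's share of the counts of a library, after TMM scaling). The 6 hepatocyte markers were high in every mouse, with a summed level between 91458 and 131955 CPM, most of it from Alb. The libraries were not alike in other cells. The 10 lymphocyte markers summed to 2062 CPM in S155A replicate 3 while the others ranged from 19.4 to 45.9 CPM. Most of that sum came from the immunoglobulin genes Ighm (1164 CPM) and Igkc (806 CPM) and from Jchain (73.8 CPM). The T cell genes Cd3e, Cd3d and Trbc2 were at 1.40, 0.87 and 2.45 CPM in that mouse. They were at 0.79, 0.66 and 1.80 CPM in S155A replicate 2. The pancreatic acinar gene Cela2a was at 9.49 CPM in WT replicate 2 and at most 0.55 CPM elsewhere. The other 5 acinar markers failed the filter on low counts, but they too were seen in WT replicate 2. Their counts were 93 to 400 in that mouse and at most 13 in any other. All 4 adipocyte markers failed the filter as well. S155A replicates 2 and 3 were the most similar pair of libraries by their counts over all genes, with a chi-square of 41.3 per gene. Their animal numbers were 830 and 831, while the high-series WT mice were 856 and 869. In the low series the WT mice were 123 and 89 and the S155A mice 118 and 90. Whether neighbouring numbers mean a shared litter or cage is not given, so genotype and litter may not be separable in the high series.

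Promoter sequence of 21 of the 27 genes was matched by symbol in a RefSeq table of build GRCm38.p6, as 27 windows. Members with no entry were Fdps, Fdft1, Sqle, Stard4, Soat2 and Npc1. The 250 bases before each start site were searched on both strands for CCAAT, the core bound by the factor NF-Y, for GGGCGG, the GC box bound by SP1, and for CACNCCAC, letters of the classical sterol regulatory element bound by SREBPs. Matches of different motifs overlapped each other 0 times in the members' windows. CCAAT was present for 19 of 21 members (90.5%), compared with 40.2% of the 10450 tested genes that had a window and 33.8% of all 32851 windows. The GC box was present for 19 of 21 members (90.5%) and 61.3% of those tested genes. CACNCCAC was present for 3 of 21 members (14.3%), namely Acat2, Hmgcs1 and Insig1, and for 6.71% of those tested genes. A match is a description of the letters in this window, and no match says only that these letters are not in it.

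The promoters printed here are those of the first enzymes of the path that hold the sterol element letters (Hmgcs1 and Acat2), of a pair of mevalonate enzymes with high-series log2 fold changes of 1.80 and 2.16 (Mvk and Mvd), and of Insig2, which ran the opposite way in the data. Each is written 5′ to 3′ on the strand of its gene, with CCAAT and CACNCCAC on either strand in capitals. The windows are Hmgcs1 at chr13:119690101-119690350 (forward strand), Acat2 at chr17:12960748-12960975 (reverse strand, 228 bases, since 22 bases inside the annotated gene were left out), Mvk at chr5:114444019-114444268 (forward), Mvd at chr8:122443423-122443672 (reverse) and Insig2 at chr1:121332590-121332839 (reverse).
Hmgcs1: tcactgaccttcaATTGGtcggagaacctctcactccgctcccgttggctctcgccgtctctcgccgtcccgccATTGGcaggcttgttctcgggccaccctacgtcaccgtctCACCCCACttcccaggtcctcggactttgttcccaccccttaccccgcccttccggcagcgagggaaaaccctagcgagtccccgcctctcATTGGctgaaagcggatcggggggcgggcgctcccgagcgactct
Acat2: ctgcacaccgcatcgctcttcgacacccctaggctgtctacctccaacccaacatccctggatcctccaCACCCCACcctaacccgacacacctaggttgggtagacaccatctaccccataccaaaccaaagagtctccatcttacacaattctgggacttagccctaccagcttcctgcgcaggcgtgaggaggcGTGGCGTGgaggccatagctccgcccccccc
Mvk: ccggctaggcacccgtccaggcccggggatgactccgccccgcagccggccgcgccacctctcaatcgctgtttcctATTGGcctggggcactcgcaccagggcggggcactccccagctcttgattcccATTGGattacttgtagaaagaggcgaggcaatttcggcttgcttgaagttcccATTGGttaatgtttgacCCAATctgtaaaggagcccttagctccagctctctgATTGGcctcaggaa
Mvd: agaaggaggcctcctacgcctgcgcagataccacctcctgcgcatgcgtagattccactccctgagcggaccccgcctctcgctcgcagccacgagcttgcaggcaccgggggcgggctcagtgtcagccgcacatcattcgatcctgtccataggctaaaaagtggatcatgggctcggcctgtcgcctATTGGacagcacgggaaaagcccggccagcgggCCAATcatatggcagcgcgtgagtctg
Insig2: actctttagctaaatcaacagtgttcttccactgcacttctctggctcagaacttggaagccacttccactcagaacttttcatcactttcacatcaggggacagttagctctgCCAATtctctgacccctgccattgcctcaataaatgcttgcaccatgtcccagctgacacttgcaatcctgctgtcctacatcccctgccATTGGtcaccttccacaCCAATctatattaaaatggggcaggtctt
Mvk holds CCAAT 5 times in this window, Hmgcs1 and Insig2 hold it 3 times each, Mvd holds it 2 times, and Acat2 does not hold it. Insig2 had 3 windows, and the printed one holds no GC box. Its other windows lie inside the annotated gene and hold a GC box but no CCAAT.

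Over all 8 mice, the enzymes of cholesterol synthesis were at higher mean levels in S155A than in WT liver, but the mice overlapped for all but 1 of them and no gene passed the test. The log2 fold change was above 0 for 20 of the 27 genes, with a median of 0.52, compared with -0.01 over all genes tested. The median was 0.69 for the 19 enzymes, of which 17 were above 0, 0.24 for the 4 control genes and -0.11 for the 4 genes of transport, esterification and receptor turnover. At an adjusted p under 0.05 in edgeR's quasi-likelihood test with Benjamini-Hochberg adjustment, 0 of 27 members and 0.00% of all genes were called, and the members' adjusted p lay between 0.993 and 0.996. DESeq2 and limma-voom called 0 members too. At an unadjusted p under 0.05, 9 members were higher in S155A mice (background 1.42% of genes) and 0 were lower (background 1.98%). These 9 were all enzymes: Mvk, Idi1, Fdps, Sqle, Lss, Cyp51, Msmo1, Hsd17b7 and Dhcr7. The count was not stable: it ranged from 1 (without WT replicate 3, S155A replicate 2 or S155A replicate 3) to 15 (without S155A replicate 1), was 3 without WT replicate 1 or 4 and 14 without S155A replicate 4, and was 1 with limma-voom and 4 with a robust fit.

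**Figure D1:**
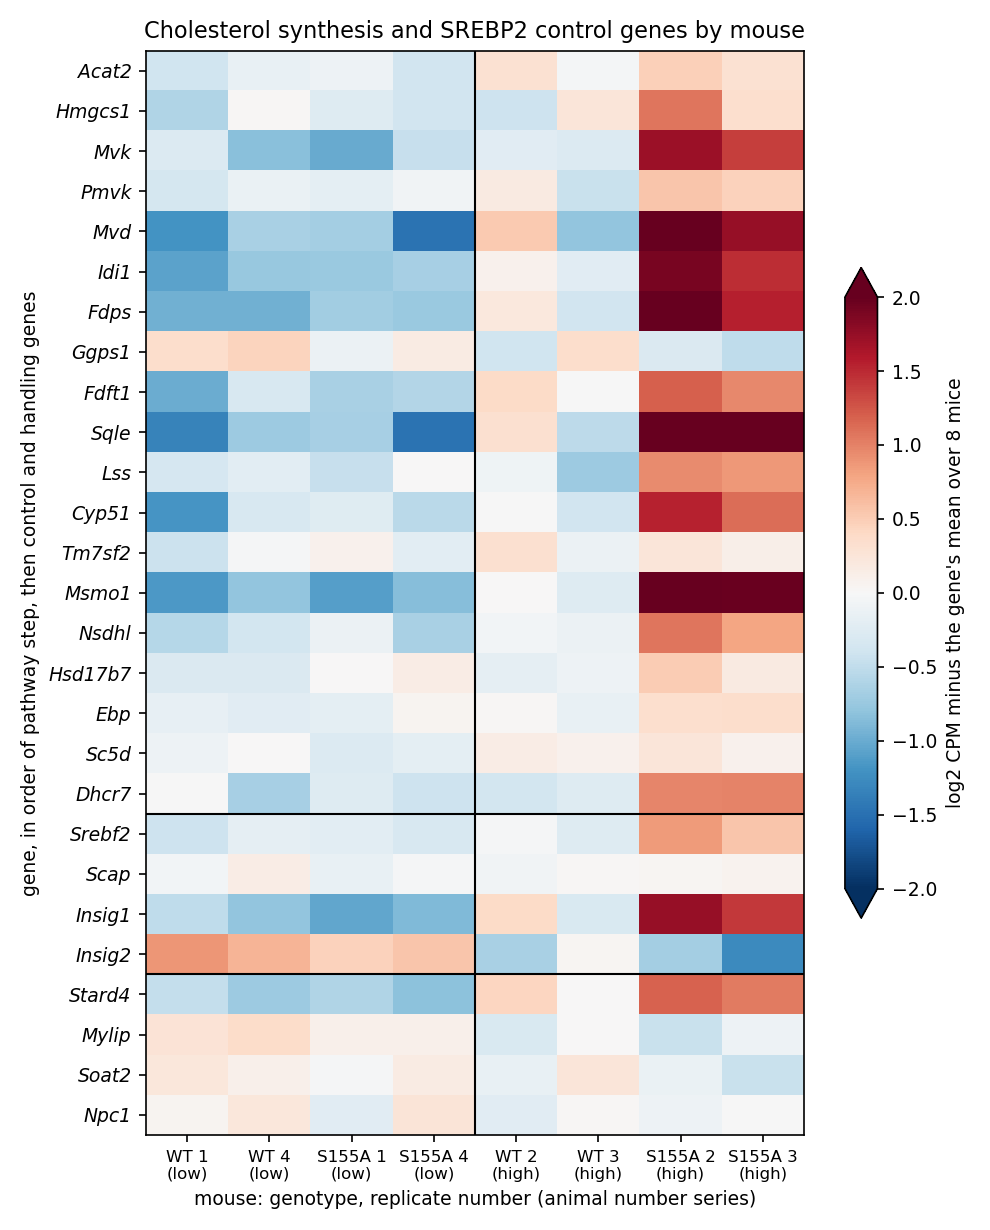
Heat map of the 27 genes (rows, in order of pathway step, then control and handling genes) in each of the 8 mice (columns, low series left of the line and high series right of it). Colour is log2 CPM minus the gene's mean over 8 mice, with values beyond 2 in either direction at the end of the scale, and S155A replicates 2 and 3 are above all 6 other mice for 19 of the 27 genes.

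For most of the enzymes, the higher level was seen mainly in 2 of the 4 S155A mice. S155A replicates 2 and 3, both of the high series, were above all 6 other mice for 19 of 27 members (70.4%) and 16 of 19 enzymes (84.2%), compared with 9.11% of all genes tested. They were below all 6 others for 1 member, Insig2, compared with 9.94% of all genes. S155A replicate 2 was the highest of the 8 mice for 18 of 27 members, compared with 1905 of all 14629 genes tested. The summed level of the 27 genes was 2497 CPM in S155A replicate 2, 2103 CPM in S155A replicate 3 and 1447 to 1612 CPM elsewhere. Without these 2 mice, an alternative chosen after seeing the data, the median log2 fold change of the members was -0.10 and the value of 17 members changed sign. That fit sets S155A mice of the low series alone against WT mice of both series, so genotype and series are not balanced in it, and the mice left out were those seen to be highest. The contrast within the low series, given next, compares like with like.

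The contrast was also read within each animal series, from a model with a mean for each genotype and series over all 8 mice. In the low series, with 2 mice per genotype, the median log2 fold change of the members was -0.01 and 11 of 27 were above 0. At an adjusted p under 0.05 in edgeR's test 0 members were called (background 0.00%), and at an unadjusted p under 0.05 there was 1 member, Hsd17b7 (background 5.03%). The low-series mice of the genotypes did not overlap for 3 members that were higher in S155A (background 16.6%) and 5 that were lower (background 16.3%).

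In the high series, the median log2 fold change was 0.85, compared with -0.01 over all genes, and 23 of 27 members were above 0. An adjusted p under 0.05 in edgeR's quasi-likelihood test with Benjamini-Hochberg adjustment was reached by 3 members, Msmo1, Idi1 and Fdps, all higher in S155A mice (background 0.0273% of genes, or 4 genes) and by 0 that were lower (background 0.0137%). At an unadjusted p under 0.05, 18 members were higher (background 5.46%) and 1, Insig2, was lower (background 5.80%). The high-series mice of the genotypes did not overlap for 20 members that were higher in S155A (background 22.7%) and 1 that was lower (background 23.8%). DESeq2 called 14 members here, among 317 of the 14629 genes. With limma-voom 5 genes were called, and the members were the same 3 as in edgeR. The number rests on single mice: it was 0 without WT replicate 3 or S155A replicate 3, and 1 without S155A replicate 1, 2 or 4. With only the 4 high-series mice in the fit, chosen after seeing the data, 3 members were called, Mvk, Msmo1 and Dhcr7.

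The difference of the S155A effect between the series was tested itself. Its median over the members was 0.85 on the log2 scale, high minus low, and 14 members had an unadjusted p under 0.05 (background 11.1%). No member passed an adjusted p of 0.05 in edgeR's test (0 of 27, background 0.00%), with the smallest adjusted p, 0.0851, at Msmo1. DESeq2 called 10 members for this difference, among 285 of the 14629 genes. Scaling by library size alone moved the median of all genes in the high series from -0.01 to -0.12, beside which the members' median was 0.74, and it put the members' low-series median at 0.02. Under it 19 members rather than 23 were above 0 in the high series (Tm7sf2, Sc5d, Scap and Npc1 changed sign), 15 rather than 11 in the low series, and the same 3 members were called.

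**Figure D2:**
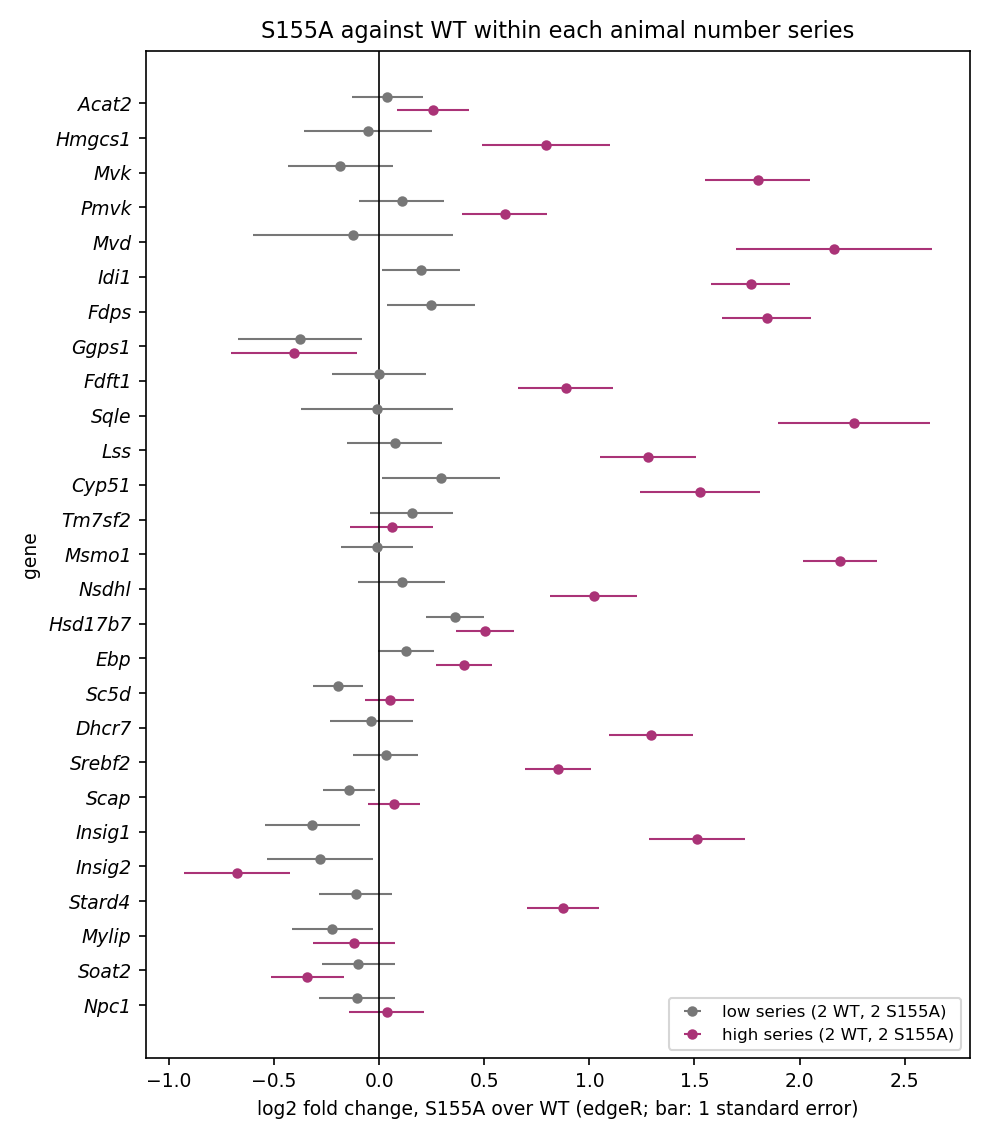
Log2 fold change of S155A over WT (horizontal axis) for each of the 27 genes (vertical axis) by animal series, 2 WT and 2 S155A mice each, with bars of 1 standard error from edgeR. The median of the 27 points is -0.01 (low series) and 0.85 (high series), with Insig2 at -0.68 the lowest point of the high series.

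The first steps make mevalonate and activate it. Acat2, which joins acetyl-CoA units, was at 27.8, 45.3, 35.8 and 33.0 CPM in WT replicates 1 to 4 and at 34.3, 51.3, 45.4 and 28.1 CPM in S155A replicates 1 to 4. Hmgcs1, the cytosolic HMG-CoA synthase, was at 63.0, 71.8, 114 and 97.3 CPM in WT mice and at 80.8, 201, 121 and 73.7 CPM in S155A mice in the same order. For both genes the genotypes overlapped. The high-series log2 fold change was 0.26 ± 0.17 (standard error) for Acat2 and 0.79 ± 0.31 for Hmgcs1. The contrast has 2 mice per genotype, but its standard error rests on the spread estimated from all 8 mice. Mvk, mevalonate kinase, was at 7.83, 8.13, 7.85 and 5.31 CPM in WT mice and at 4.71, 31.0, 24.6 and 6.86 CPM in S155A mice. The high-series S155A mice were above every other mouse for Mvk, while the low-series S155A mice lay within or below the WT mice. Its log2 fold change was 1.80 ± 0.25 in the high series (edgeR adjusted p = 0.0902) and -0.19 ± 0.25 in the low series. Pmvk, which adds the next phosphate, was at 18.3 to 28.3 CPM in WT mice and at 21.7, 36.4, 34.2 and 23.8 CPM in S155A mice. Mvd, which removes the carboxyl group to give isopentenyl pyrophosphate, was at 2.13, 7.03, 2.84 and 3.14 CPM in WT mice and at 3.06, 28.0, 16.4 and 1.76 CPM in S155A mice. The genotypes overlapped over all mice for Mvd (log2 fold change 1.70 ± 0.77, two-sided exact permutation test p = 0.371), since the lowest mouse of all was S155A replicate 4.

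The isoprenoid steps held 2 of the 3 called genes. Idi1 (ENSMUSG00000058258, GRCm38 chr13:8885501-8892451, forward strand), the isomerase that makes dimethylallyl pyrophosphate, was at 12.8, 28.4, 23.0 and 15.9 CPM in WT mice and at 16.0, 100.4, 74.6 and 16.9 CPM in S155A mice. Within the high series it rose 3.40-fold (log2 fold change 1.77 ± 0.19, edgeR adjusted p = 0.0266), and in the low series the log2 fold change was 0.20 ± 0.19. Fdps (ENSMUSG00000059743, chr3:89093588-89101959, reverse strand), farnesyl pyrophosphate synthase, was at 15.7, 35.5, 23.7 and 15.7 CPM in WT mice and at 19.0, 122, 90.4 and 18.3 CPM in S155A mice. Within the high series Fdps rose 3.59-fold (log2 fold change 1.84 ± 0.21, edgeR adjusted p = 0.0373), compared with 0.25 ± 0.21 on the log2 scale in the low series. The low-series mice of both genotypes stayed between 12.8 and 19.0 CPM for this pair of genes, and WT replicates 2 and 3 lay between them and the high-series S155A mice. Over 18 fits (the one given here, other tools, scalings and filters, each mouse left out, and the 4 high-series mice alone), the adjusted p stayed under 0.05 in 11 for Idi1 and in 10 for Fdps, with a highest value of 0.303 and 0.201. The genes Gm43738 and Gm22935, overlap Fdps on its own strand. Ggps1, which makes geranylgeranyl pyrophosphate for protein prenylation and lies on a side branch, did not share the pattern. It was at 4.92, 2.91, 4.88 and 5.23 CPM in WT mice and at 3.54, 3.16, 2.72 and 4.29 CPM in S155A mice, with log2 fold changes of -0.37 ± 0.29 (low series) and -0.40 ± 0.30 (high series).

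The squalene steps followed the same 2 mice. Fdft1, squalene synthase, was at 32.4, 83.9, 63.7 and 51.5 CPM in WT mice and at 40.9, 147, 126 and 42.8 CPM in S155A mice. Sqle, squalene epoxidase, which is a rate-controlling step of the path, was at 4.21, 13.3, 7.43 and 6.47 CPM in WT mice and at 6.73, 57.0, 42.3 and 3.86 CPM in S155A mice. Sqle had the highest log2 fold change of the 27 genes over all mice, 1.80 ± 0.75, and an exact permutation p of 0.371 (two-sided). It was 2.26 ± 0.36 in the high series (edgeR adjusted p = 0.163) and -0.01 ± 0.36 in the low series. Lss, which closes the rings to give lanosterol, was at 18.4, 22.0, 14.1 and 20.1 CPM in WT mice and at 17.0, 44.9, 42.7 and 23.5 CPM in S155A mice. For Lss the WT mice of the high series were not above those of the low series, unlike Fdft1 and Sqle, and its high-series log2 fold change was 1.28 ± 0.23 (edgeR adjusted p = 0.179).

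Among the enzymes that turn lanosterol into cholesterol, Msmo1 passed the test in the high series. Msmo1 (ENSMUSG00000031604, chr8:64718139-64733792, reverse strand), the sterol 4-alpha-methyl oxidase, was at 14.1, 31.7, 26.4 and 18.1 CPM in WT mice and at 14.6, 142, 124 and 17.3 CPM in S155A mice. In the high series it rose 4.57-fold (log2 fold change 2.19 ± 0.17, edgeR adjusted p = 0.00776), while its low-series value was -0.01 ± 0.17. The low-series mice of the genotypes overlapped and the high-series mice were far apart, and the difference between the series was 2.20 ± 0.24 on the log2 scale (edgeR adjusted p = 0.0851). The adjusted p of the high-series contrast was under 0.05 in 16 of 18 fits, with 0.0876 without WT replicate 3 and 0.0844 without S155A replicate 3. Cyp51, the lanosterol demethylase, was at 15.4, 34.9, 26.7 and 28.1 CPM in WT mice and at 29.4, 102, 75.8 and 23.9 CPM in S155A mice. Nsdhl, which acts after Msmo1, was at 7.18 to 10.3 CPM in WT mice and at 9.79, 22.3, 18.5 and 6.80 CPM in S155A mice. Dhcr7, the last enzyme of the Kandutsch-Russell route, was at 26.5, 20.7, 22.4 and 17.0 CPM in WT mice and at 22.2, 52.7, 52.9 and 20.1 CPM in S155A mice. For Cyp51, Nsdhl and Dhcr7 the high-series log2 fold changes were 1.53 ± 0.28, 1.02 ± 0.21 and 1.29 ± 0.20, and none passed the adjusted test (edgeR adjusted p = 0.179, 0.191 and 0.131).

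Hsd17b7, the 3-ketosteroid reductase of the path, was the only member whose WT and S155A mice did not overlap over all 8 mice, compared with 0.943% of genes that were higher without overlap. It was at 42.6, 45.8, 48.2 and 42.7 CPM in WT mice and at 52.2, 74.2, 59.0 and 57.5 CPM in S155A mice. Every S155A mouse was above every WT mouse, and the log2 fold change was 0.44 ± 0.12 (exact permutation test, two-sided, p = 0.0286, which is the lowest that 4 against 4 mice can give, edgeR adjusted p = 0.993). It was 0.36 ± 0.14 in the low and 0.50 ± 0.14 in the high series, and it stayed between 0.33 and 0.50 when single mice were left out. The other late enzymes had smaller differences that did not pass the test. Ebp, the sterol isomerase, was at 154 to 181 CPM in WT and 156 to 228 CPM in S155A mice, with a log2 fold change of 0.28 ± 0.13. Tm7sf2, a sterol reductase, had 0.10 ± 0.16 and Sc5d, the sterol desaturase, -0.06 ± 0.13, and both lay within a 1.68-fold range over the 8 mice. The gene Vps51 overlaps Tm7sf2 on the same strand.

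**Figure D3:**
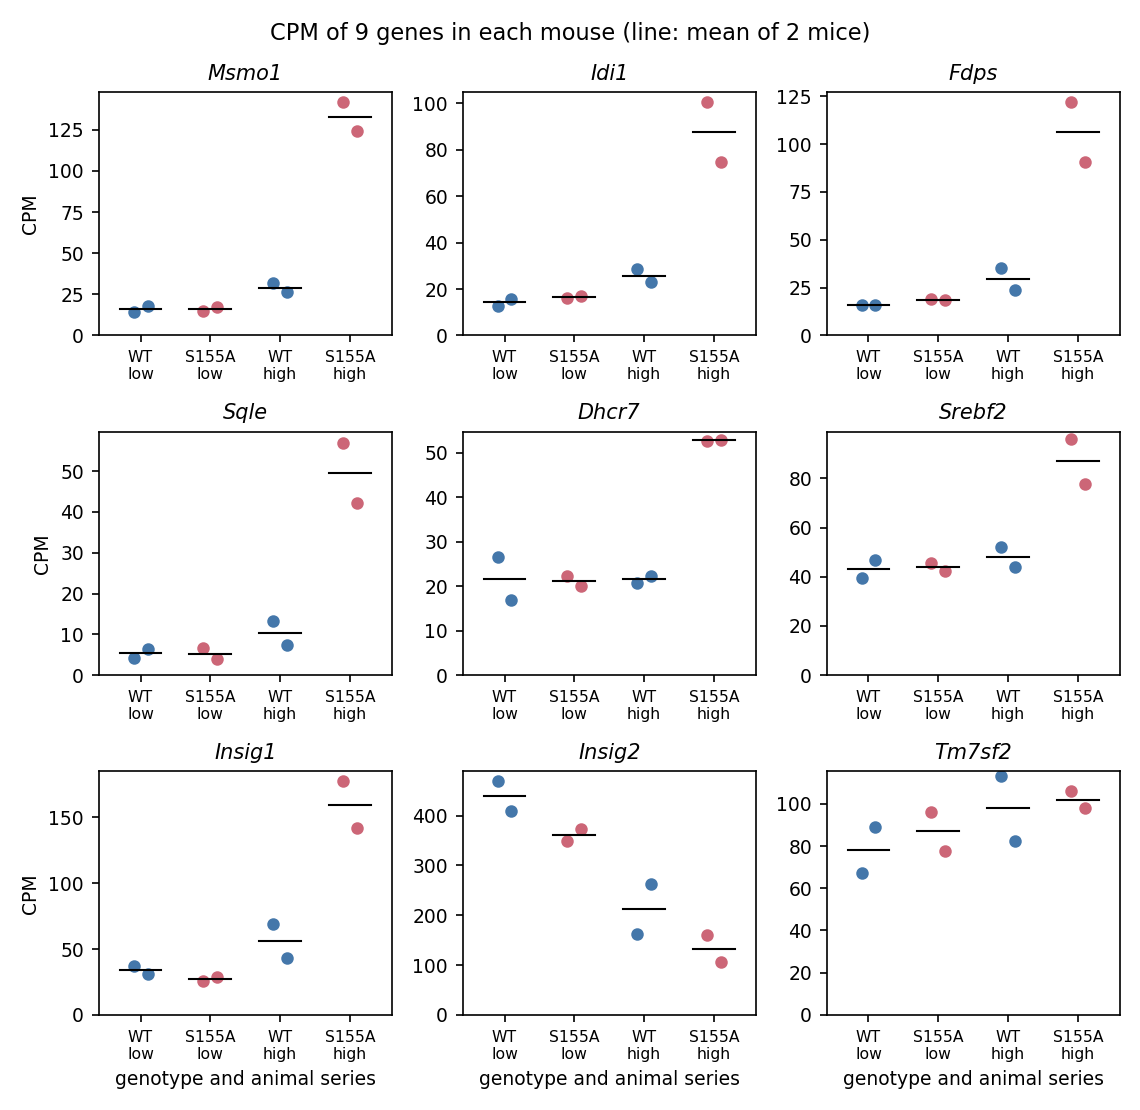
CPM of Msmo1, Idi1, Fdps, Sqle, Dhcr7, Srebf2, Insig1, Insig2 and Tm7sf2 (vertical axes, from 0) in each mouse, by genotype and animal series, with a line at the mean of 2 mice. For Msmo1 the high-series S155A mice are at 142 and 124 CPM and the other 6 mice at 14.1 to 31.7 CPM, whereas Tm7sf2 lies between 67.2 and 113 CPM in all mice.

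Of the 4 control genes, Srebf2 and Insig1 followed the enzymes and Insig2 went the other way. Srebf2, which encodes SREBP2, was at 39.6, 52.2, 44.1 and 46.9 CPM in WT mice and at 45.8, 96.1, 77.8 and 42.5 CPM in S155A mice. Its log2 fold change was 0.85 ± 0.16 in the high series (edgeR adjusted p = 0.179) and 0.03 ± 0.16 in the low series. The gene of the microRNA Mir33 lies inside Srebf2 on the same strand. Insig1, the INSIG gene that SREBP2 itself induces, was at 37.3, 69.1, 43.0 and 30.9 CPM in WT mice and at 26.0, 177, 142 and 28.7 CPM in S155A mice. Both low-series S155A mice were below both low-series WT mice for Insig1 (background 16.3%). Both high-series S155A mice were above both high-series WT mice (background 22.7%). Its log2 fold change was -0.32 ± 0.23 in the low and 1.51 ± 0.23 in the high series, a difference of 1.83 ± 0.32 (edgeR adjusted p = 0.210). Insig2, the INSIG gene that in liver is abundant in fasting and lowered by insulin, was at 471, 162, 262 and 409 CPM in WT mice and at 349.5, 159.7, 105 and 374 CPM in S155A mice. All 4 low-series mice were above all 4 high-series mice for Insig2, and within the high series the S155A mice were the lower ones (log2 fold change -0.68 ± 0.25, edgeR adjusted p = 0.379). Scap, the sterol-sensing escort, was at 123 to 144 CPM in WT and 117 to 135 CPM in S155A mice, with a log2 fold change of -0.03 ± 0.10.

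The genes that handle sterols after synthesis were mostly apart from this pattern. Stard4, a cytosolic sterol carrier that SREBP2 induces, was at 23.6, 44.1, 32.9 and 19.7 CPM in WT mice and at 21.5, 74.0, 67.3 and 18.5 CPM in S155A mice. Stard4 was above all 6 other mice in S155A replicates 2 and 3, with a log2 fold change of 0.87 ± 0.17 in the high series (edgeR adjusted p = 0.190). Mylip, the ubiquitin ligase of lipoprotein receptors that LXR induces, had -0.18 ± 0.19 over all mice. Soat2, which esterifies cholesterol, had -0.21 ± 0.14, and Npc1, which exports cholesterol from lysosomes, had -0.04 ± 0.14. The genotypes overlapped for all 3.

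The animal series also differed from each other. For 11 members every high-series mouse was above every low-series mouse whatever the genotype, compared with 3.53% of all genes tested, and for 2 members, Insig2 and Mylip, every high-series mouse was below (background 3.32%). The 11 were Acat2, Mvk, Idi1, Fdps, Fdft1, Sqle, Msmo1, Nsdhl, Sc5d, Insig1 and Stard4. Among WT mice alone, the mean CPM of the high series over that of the low series ranged over the 27 members from 0.48 for Insig2 to 1.94 for Sqle. It was 1.88 for Fdps, 1.80 for Idi1 and Msmo1 and 1.64 for Insig1, but 1.33 for Acat2, 1.30 for Nsdhl, 1.22 for Mvk and 1.12 for Sc5d. Other enzymes were near 1 in WT mice, with 1.10 for Hsd17b7, 0.99 for Dhcr7 and 0.94 for Lss. Among S155A mice the same ratio was 5.32 for Idi1, 5.69 for Fdps, 9.38 for Sqle, 8.31 for Msmo1, 5.84 for Insig1, 4.81 for Mvk, 2.49 for Dhcr7, 2.16 for Lss, 1.33 for Sc5d, 1.21 for Hsd17b7 and 0.37 for Insig2. These ratios have 2 mice on each side and are given with no test.

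Markers of other cells also differed between these mice. The 6 Kupffer cell markers were all higher in S155A than in WT mice of the high series (median log2 fold change 0.93), with a summed level of 149 and 186 CPM in the WT and 360 and 257 CPM in the S155A mice, and of 168 to 305 CPM in the low series. The 10 lymphocyte markers were all above 0 in the same contrast (median 1.37). Their sum was by far the highest in S155A replicate 3, mostly from Ighm, Igkc and Jchain. The 5 stellate cell markers were all below 0 in S155A over all mice (median log2 fold change -0.43) and in the high series (median -0.54), and they summed to 90.5 CPM in S155A replicate 2 and to 161 to 279 CPM elsewhere. The 6 hepatocyte markers summed to 124762 and 131955 CPM in S155A replicates 2 and 3 and to between 91458 and 111162 CPM elsewhere. Alb made up most of these sums, at 90812 and 97392 CPM in S155A replicates 2 and 3. In the high series 5 of the 6 were above 0, among them Cps1 (log2 fold change 1.20), Tat (0.84) and Alb (0.42). Ttr was lower without overlap (log2 fold change -0.18). At an unadjusted p under 0.05 in edgeR's test, 50% of hepatocyte, 83.3% of Kupffer cell and 40% of lymphocyte markers were higher in the high series. The share was 66.7% of the members and 5.46% of all genes. No marker in these lists was called in the adjusted test. The 5 red blood cell markers were all below 0 over all mice (median -0.54), and all 5 were lower without overlap in the high series (background 23.8%), with a summed level of 1462 and 1337 CPM in the WT and 1154 and 951 CPM in the S155A mice. Their sum was 411 and 2647 CPM in the WT and 1009 and 989 CPM in the S155A mice of the low series. The part of these cells in the values of the cholesterol genes was not tested. Without S155A replicate 3, which held the lymphocyte signal, the median of the 27 genes was 0.43 over all mice and 0.996 in the high series, and the number of members called in the high series went from 3 to 0. With WT replicate 2 left out, the mouse with the acinar signal, these medians were 0.59 and 0.98, and 2 members were called in the high series.

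**Figure D4:**
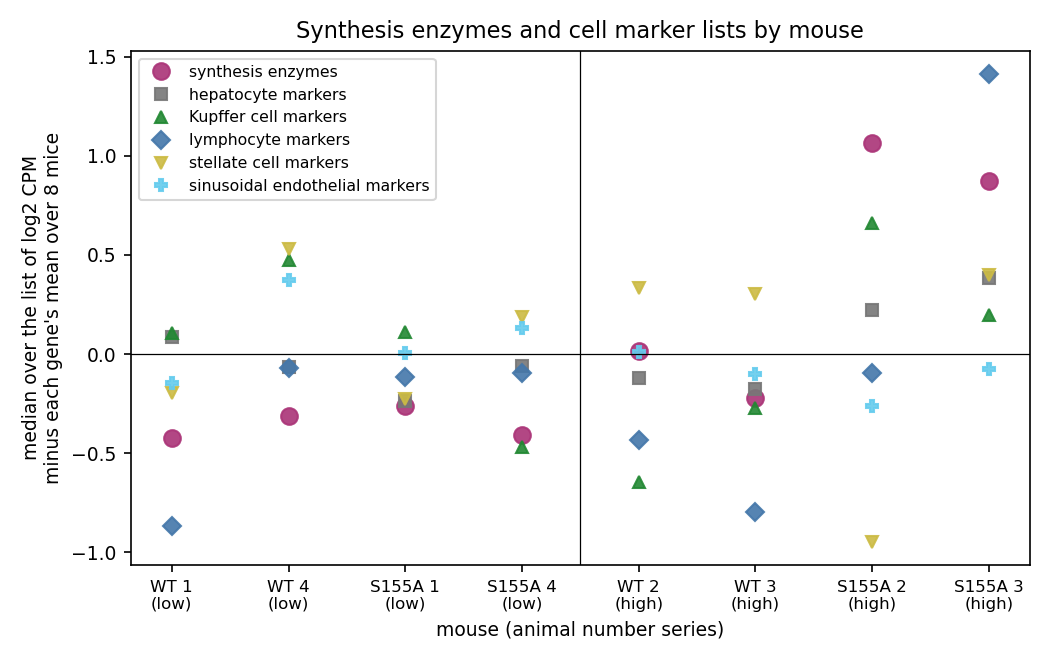
Median over each list of log2 CPM minus each gene's mean over 8 mice (vertical axis) in every mouse (horizontal axis, low series left of the line), for the synthesis enzymes and 5 lists of cell markers. The enzymes stand at 1.06 and 0.87 in S155A replicates 2 and 3 and between -0.42 and 0.02 in the other mice, and the lymphocyte markers at 1.41 in S155A replicate 3.

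A second list of 27 genes next to the path (sterol sensing and degradation machinery, LXRs, acetyl-CoA supply and isoprenoid branches) had a median nearer to 0. Their median log2 fold change was 0.07 over all mice, with 18 above 0, and it was -0.01 for the low-series mice and 0.13 for the high-series mice, and 0 were called in edgeR's adjusted test. In the high series 5 were higher (18.5% of the 27, background 5.46%) and 1 was lower (3.70%, background 5.80%) at an unadjusted p under 0.05 in edgeR's test. Named after their values were seen, the 5 were Acss2 (log2 fold change 0.57), Tmem97 (0.54), Por (0.51), Rdh11 (0.43) and Srebf1 (0.39), and the other was Lipa (-0.47). Erlin2, which takes part in sterol-driven degradation in the endoplasmic reticulum, was the only one under that threshold over all mice, or 3.70% of the list beside 3.40% of all genes in either direction. It was at 26.0, 24.3, 24.6 and 24.4 CPM in WT mice and at 21.4, 20.9, 21.6 and 22.4 CPM in S155A mice. Every S155A mouse was below every WT mouse, as for 1.36% of all genes (log2 fold change -0.20 ± 0.08, unadjusted p = 0.0398 and adjusted p = 0.993 in edgeR's test, two-sided exact permutation test p = 0.0286).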

How the data were processed

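Liver RNA of 8 mice was sequenced as polyA-selected, stranded mRNA libraries read in pairs. For each gene the deposited value is an estimated count that the authors made with salmon, with a correction for transcript length between samples but none for library size. The submitters' processing notes name build GRCm38 and bcl2fastq, STAR, SAMtools, MultiQC and DESeq2. The salmon version, the annotation and the use of strand in counting are not given in the sources used here, so genes that overlap on either strand may share counts. Columns were matched to mice by animal number, and groups came from the labels.

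After rounding to whole numbers, 14629 of 45706 genes passed filterByExpr. They were scaled with TMM and tested in R 4.3.3 by edgeR 4.0.16 (quasi-likelihood test), with Benjamini-Hochberg adjustment over all genes. All 8 mice entered each fit: 1 with genotype only, and 1 with a mean per genotype and animal series, from which the contrasts within the series and their difference were taken. Log2 fold changes kept edgeR's default prior count, and their standard errors came from the F statistic. Log2 CPM in the permutation test and in the list levels of each mouse used a prior count of 2. For single genes the mean log2 CPM was also tested over all 70 assignments of mice (exact permutation test, two-sided). Where nothing else is said, ± is a standard error. The members and lists were chosen with earlier results of these data known. All 27 members are named, and of the neighbouring and feeding-state lists only genes at an unadjusted p under 0.05.

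Alternatives were DESeq2 1.42.0, voom of limma 3.58.1, other scalings and filters, a robust fit, blocks, and leaving out each mouse. Tests were checked on simulated data. No libraries were copies of each other, since even the closest pair had a chi-square of 41.3 per gene. Counting error is small at these depths (39709830 to 54540612 counts), and p-values measure the spread between mice. Gene positions are from GENCODE M21. Measurements of the study other than RNA sequencing were not used here.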

Additional observations from a re-analysis of the deposited data

Results flagged for a closer look

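In a search of 100 groups of 4 mice (the members, the lists and 9 other named genes, by genotype), 3 groups had a mouse far from the others, where about 5 are found by chance at 1 in 20. Mvk was at 5.31 CPM in WT replicate 4 and at 7.83 to 8.13 CPM in the other WT mice. Ggps1 was at 2.91 CPM in WT replicate 2 and at 4.88 to 5.23 CPM in the other WT mice. The median level of the lymphocyte markers, in log2 CPM relative to each gene's mean, was 1.41 in S155A replicate 3 and between -0.11 and -0.09 in the other S155A mice.

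The log2 fold change of Insig1 had opposite directions in the animal series. Every S155A mouse was below every WT mouse in the low series (background 16.3%) and above in the high series (background 22.7%). The difference of the log2 fold changes, high minus low, was 1.83, and its test missed the threshold (edgeR's quasi-likelihood test, adjusted p = 0.210). Srebf1, which encodes SREBP1, ran the same way as Insig1 in both series, with a difference of 0.70 (edgeR adjusted p = 0.325). Fgf21 ran the other way, higher in both S155A mice of the low series and lower in both of the high series, with a difference of -1.04 (edgeR adjusted p = 0.257).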

How the results depend on the processing

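Over all mice, 0 members were called under every alternative run, with a lowest adjusted p of 0.455, while DESeq2 called 6 genes that are not members. The replicate number did not pair the mice: deviations of same-numbered mice correlated at 0.06, 0.17, -0.11 and 0.13, and with it as a block 0 genes and 0 members were called and the members' median log2 fold change was 0.43. Leaving out single mice put the median between 0.28 and 0.68, and 1 to 15 members had an unadjusted p under 0.05, where voom gave 1 and the robust fit 4. Of 486 planned values of single members, 480 kept their direction and call. The others came from leaving out single mice, over which Tm7sf2 lay between -0.0014 (without WT replicate 1) and 0.25, Scap between -0.062 and 0.014 and Npc1 between -0.14 and 0.034 (both highest without WT replicate 4, and 0.0072 and 0.028 without S155A replicate 1), and Sc5d between -0.15 and 0.016 (without S155A replicate 1). Without both high-series S155A mice, a fit chosen after seeing the data in which S155A is low-series only while WT holds both series, the median was -0.10, 2 members had an unadjusted p under 0.05, and the log2 fold change was -0.17 for Acat2, -0.16 for Hmgcs1, -0.33 for Mvk, -0.64 for Mvd, -0.28 for Idi1, -0.27 for Fdps, -0.46 for Fdft1, -0.56 for Sqle, -0.0079 for Tm7sf2, -0.49 for Msmo1, -0.087 for Nsdhl, -0.024 for Dhcr7, -0.042 for Srebf2, -0.71 for Insig1, 0.16 for Insig2, -0.58 for Stard4 and 0.013 for Npc1.

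In the low series, DESeq2 called 19 genes, the fit without a filter on low counts 182, and the fits with a mouse left out 0 to 3 genes, with the members' median between -0.080 and 0.16 (0.16 without WT replicate 4). In the high series, DESeq2 called 317 genes and 14 members, the fit without a filter 907 genes and 17 members, and the fits with a mouse left out 0 to 14 genes and 0 to 3 members. For the difference between the series, DESeq2 called 285 genes and 10 members, the fit without a filter 765 genes and 14 members, voom 1 gene, and the fits with a mouse left out 0 to 40 genes and 0 to 2 members (2 without WT replicate 4), with the members' median between 0.52 and 0.999. The cause of these shifts was not tested. Where a mouse left out leaves 1 in its arm, that mouse is assumed to vary like the other groups. With 2 mice per genotype in each series, these contrasts rest on few animals, and series and whatever came with it cannot be told apart.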

Other observations

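Among 10 genes that follow the feeding state of the liver, the median log2 fold change of S155A over WT was 0.0023 over all mice, with 5 genes above 0 and 5 below. Scd1, the stearoyl-CoA desaturase, which SREBP1 and insulin raise, was the only one at an unadjusted p under 0.05 over all mice, beside 3.40% of all genes in either direction. It was at 701, 1962, 3095 and 1010 CPM in WT replicates 1 to 4 and at 1190, 412, 580.1 and 352 CPM in S155A replicates 1 to 4. Scd1 was lowest in S155A replicates 4 and 2 and the genotypes overlapped, with a log2 fold change of -1.42 ± 0.50 (edgeR's quasi-likelihood test, unadjusted p = 0.0176, adjusted p = 0.993). In the high series, where the cholesterol enzymes were higher in S155A mice, the log2 fold change of Scd1 was -2.35 ± 0.51 (edgeR adjusted p = 0.202), and in the low series it was -0.15 ± 0.49. Fgf21, the hormone that PPARa raises in fasting, is named after its values were seen. It was at 32.1, 33.9, 23.8 and 30.5 CPM in WT replicates 1 to 4 and at 44.4 and 42.4 CPM in S155A replicates 1 and 4, above every WT mouse. S155A replicates 2 and 3 lay below every WT mouse, with the lower value of 19.0 CPM in replicate 3. In the high series the log2 fold change of Fgf21 was -0.56 ± 0.17 (unadjusted p = 0.00973) and in the low series 0.47 ± 0.17 (unadjusted p = 0.0219), and neither passed edgeR's adjusted test (adjusted p = 0.298 and 0.909).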
